A study of Caenorhabditis elegans with 18 samples.

Results

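The 6 genes gld-1, gld-2, gld-3, gld-4, rnp-8 and nos-3 encode RNA regulators that act below FBF in the decision of Caenorhabditis elegans germ cells between mitosis and meiosis. They were taken by name from a table of read counts on 26709 genes, and all 6 were in it. The counts come from iCLIP. This assay joins RNA to bound protein by UV irradiation of live worms and reads out the RNA pieces that are pulled down, so a count depends on how much of an RNA is present and on how much of it is bound. FBF-1 and FBF-2, a pair of nearly identical PUF proteins collectively called FBF, were each purified from adults making sperm and from adults making oocytes, all grown at 25°.

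Spermatogenic FBF-1 libraries came from a strain listed as fbf-1(ok91) qSi232[3xflag::fbf-1]; fem-3(q22 ts,gf)/nT1[qIs51], and spermatogenic FBF-2 libraries from one listed as fbf-2(q738) qSi75[3xflag::fbf-2]; fem-3(q22 ts,gf)/nT1[qIs51]. Whether the animals used for iCLIP carried the balancer nT1 is not stated in the paper. Oogenic libraries came from the same transgenic strains without the fem-3 allele and the balancer. Every strain thus carried 1 single-copy transgene with an N-terminal FLAG tag in place of the deleted endogenous gene, while the other paralog was intact. Strain and protein cannot be told apart in a comparison of FBF-1 with FBF-2. Controls were made without the FLAG antibody for each germline gender, and their strain is not given in the sources used here. Each of the 6 groups had 3 biological replicates, 18 libraries in all.

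FBF holds germ cells in the stem cell state and represses many of the RNAs it binds. GLD-1, a STAR-family translational repressor, and NOS-3, a Nanos-family protein, form one branch of the pathway that promotes entry into meiosis. In the other branch GLD-2, a cytoplasmic poly(A) polymerase, lengthens poly(A) tails with GLD-3, a Bicaudal-C family protein, or with RNP-8 as its partner, while GLD-4 is a second cytoplasmic poly(A) polymerase.

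FBF libraries held 18749 to 1833483 counts on genes and controls 59621 to 283777. The smallest, FBF-1 oogenic replicate 1, is so shallow that 1 count equals 53.3 RPM (the reads on a gene, scaled so that the counts on all genes of each library have the same total). A count of 0 there allows up to 160 RPM, which is 3 counts, for counting error only. Spermatogenic FBF libraries were sequenced in lane 1, oogenic FBF libraries in lane 2, spermatogenic controls in lane 3 and oogenic controls in lane 1, so lane cannot be told apart from germline gender, among the FBF libraries or among the controls, or from the antibody within a gender. Sperm markers followed the labels: the summed level of 16 such RNAs was 631 to 1221 RPM in spermatogenic FBF libraries and 0 to 98.7 RPM in oogenic FBF libraries. In the controls it was 753 to 899.6 RPM in spermatogenic and 21.6 to 45.8 RPM in oogenic libraries. Oocyte markers (13 RNAs) summed to 3108 to 4043 RPM in spermatogenic and 5540 to 12062 RPM in oogenic FBF libraries. In adults taken whole, fewer cells of a type and less RNA per cell cannot be told apart.

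All 6 genes lie on the forward strand, 4 of them on chromosome I and 2 on chromosome II (coordinates from the WBcel235 annotation, Ensembl release 115). gld-1 is at I:7695681-7698222 with 1 annotated transcript and 2219 bases of merged exons. gld-2 spans I:6369748-6386194 (6283 exonic bases), gld-4 I:9118115-9123181 (3958) and rnp-8 I:364510-368579 (2459). gld-3 is at II:7132643-7137522 (3843 exonic bases) and nos-3 at II:9746316-9750462 (3435). Exons of 4 of the genes overlap another gene. rnp-8 shares 310 bases with icpp-55, nos-3 shares 51 with Y53C12B.7 and gld-2 shares 46 with klu-2, each on the opposite strand. gld-4 shares 170 bases with the snoRNA gene ZK858.10 on the same strand. The strand setting of the read counting is not given in the sources used here, so reads in the opposite-strand stretches cannot be assigned with certainty. For gld-4 the strand cannot separate the genes. The paper states that reads on both an mRNA and a noncoding RNA were left out of counts per gene as ambiguous. The counts of gld-4 may therefore lack reads from its shared stretch. The paper also places ZK858.10 among FBF-bound RNAs enriched in oogenic germlines.

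The 6 RNAs together took 0.512% to 1.21% of the counts in FBF libraries, against 0.0453% to 0.0757% in controls. Most of that was gld-1 in the FBF libraries, where it made up 61.6% to 89.2% of the counts on the 6 RNAs, against 14.8% to 35.1% in spermatogenic and 44.9% to 53.3% in oogenic controls. The plot of shares by library shows gld-1 as the larger part of every FBF bar and as the smaller part of every spermatogenic control bar.

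**Figure D1:**
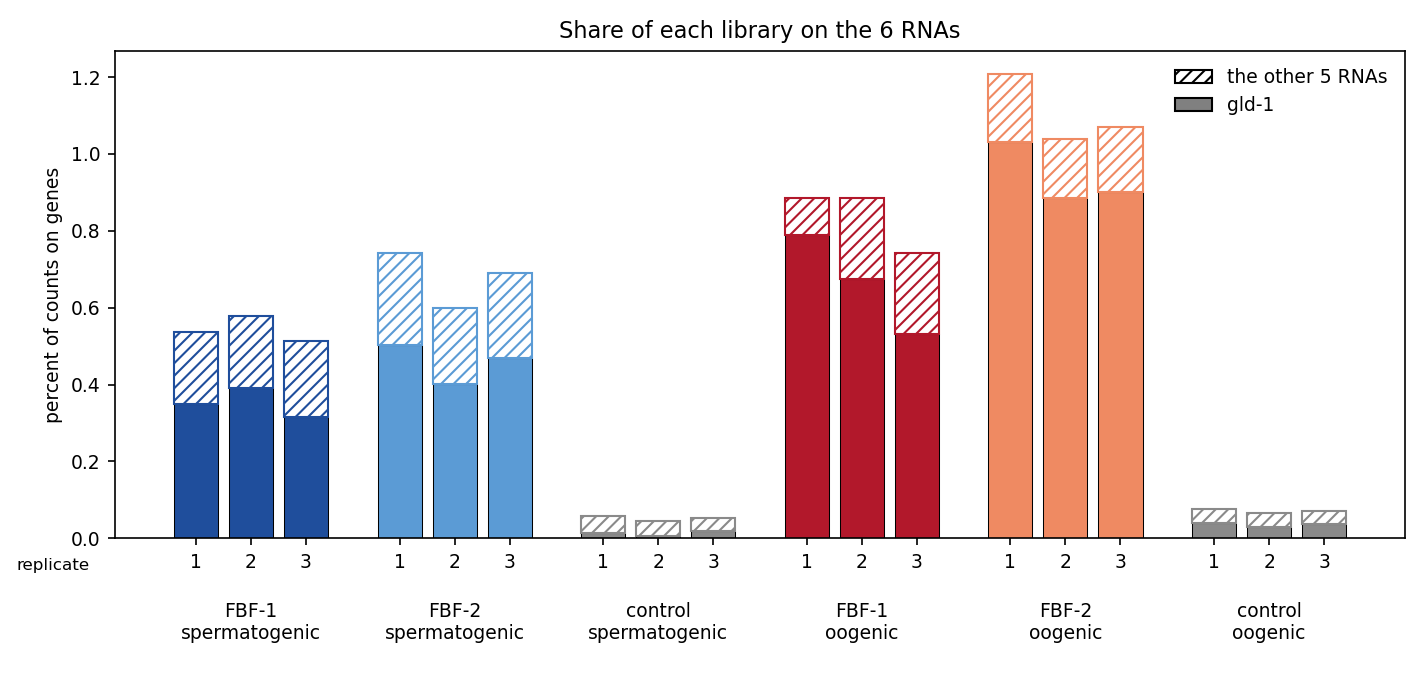
Percent of the counts on genes that fell on the 6 RNAs in each of the 18 libraries, with gld-1 as the filled part and the other 5 RNAs as the hatched part of each bar. FBF libraries reach 0.512% to 1.21%, controls 0.0453% to 0.0757%.

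Levels of different RNAs were compared per kilobase of exon. The paper states that FBF prefers to bind in the 3′UTR. Values per kb of all exons therefore do not measure binding per site, and at equal RPM they are lower for longer RNAs. By RPM alone, gld-2 ranked 36 to 49 among 17995 protein-coding genes in FBF group means. Per kb, gld-2 ranked 545 to 791 among those with a matched exon length. In spermatogenic germlines gld-1 had 1585 ± 169.7 RPM per kb with FBF-1 and 2060 ± 235 with FBF-2, while in oogenic germlines it had 2998 ± 580 with FBF-1 and 4234 ± 356 with FBF-2 (SD, n = 3 each). Of 16527 protein-coding genes with a matched exon length it ranked first in the means of FBF-2 spermatogenic, FBF-1 oogenic and FBF-2 oogenic libraries, and behind sip-1 alone, at 2040 RPM per kb, in FBF-1 spermatogenic libraries. In the controls gld-1 ranked 1114 with 58.6 ± 26.8 RPM per kb in spermatogenic germlines and 330 with 158 ± 25.1 in oogenic germlines.

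The other 5 RNAs lay an order of magnitude lower, from 14.3 to 201 RPM per kb in FBF group means. In FBF-1 spermatogenic libraries gld-2 (149 ± 2.9 RPM per kb) stood above rnp-8 (139 ± 7.48), then came gld-3 (84.1 ± 4.95) and nos-3 (63.7 ± 4.31), with no overlap between neighbours. In FBF-2 spermatogenic libraries the upper pair was in the opposite order, rnp-8 (201 ± 16.6 RPM per kb) above gld-2 (143 ± 14.4), and neither pair overlapped within its own group. Without the division by length gld-2 had the higher mean there, at 896 RPM against 495 RPM for rnp-8. nos-3 and gld-3 followed at 105 and 96.4 RPM per kb with overlapping libraries. In oogenic germlines gld-2 and rnp-8 had the higher means after gld-1, at 143 and 123 RPM per kb with FBF-1 and 136 and 137 with FBF-2, overlapping each other in both. gld-3 and nos-3 were below them, at 63.7 and 59.6 RPM per kb with FBF-1 (overlapping each other and rnp-8) and 43.9 and 70.2 with FBF-2 (not overlapping). gld-4 came last in all 4 FBF groups, at 21.9 and 21.8 RPM per kb in spermatogenic and 18.4 and 14.3 in oogenic germlines, in each case with FBF-1 before FBF-2. Its libraries did not overlap those of any other of the 6, except with gld-3 in FBF-1 oogenic libraries, where the shallow replicate 1 held 2 counts of gld-3. In the controls the order was less clear: apart from gld-1 in oogenic germlines, group means were 5.6 to 58.6 RPM per kb, and most neighbours overlapped.

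FBF libraries were first compared with the controls of the same germline gender, which shows whether an RNA was recovered through the antibody. For each gender, FBF-1 and FBF-2 libraries were added in pairs to give 3 combined FBF replicates, which were tested with edgeR at library-size scaling. A call required an adjusted p (Benjamini-Hochberg, over all RNAs tested) under 0.01 and a change over 2-fold. In spermatogenic germlines 5 of the 6 RNAs were higher with FBF, where 29.2% of 8269 RNAs were called higher. In oogenic germlines all 6 were called higher, against 29.6% of 6424. The median log2 fold change of the 6 was 2.68 in spermatogenic and 2.58 in oogenic germlines, and that of all RNAs tested 0.71 and 0.90 in the same order. Summed somatic markers were lower with FBF than in controls, at 6456 to 12260 RPM against 15519 to 16418 RPM for the sum of 6 intestine RNAs and 4308 to 6725 RPM against 7414 to 9854 RPM for 6 muscle RNAs. In spermatogenic germlines 2 of the 6 intestine RNAs and 1 of the 6 muscle RNAs had a log2 fold change above 0. Summed oocyte markers were higher with FBF in both genders, as their control sums were 2177 to 2516 RPM in spermatogenic and 3316 to 3749 RPM in oogenic germlines. Of the 13 oocyte markers, 10 were called higher and 2 lower in spermatogenic germlines. In oogenic germlines 8 of the 13 were called higher and 0 lower, and 2 had a log2 fold change below 0. The part of either in the recovery was not tested.

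Among the repressors, gld-1 had the greatest recovery. It had 3487, 3908 and 3157 RPM with FBF-1 and 5021, 4001 and 4691 RPM with FBF-2 in spermatogenic germlines, against 138, 67.1 and 185 RPM in the controls. Those controls held 15, 4 and 27 counts of gld-1. In oogenic germlines gld-1 had 7894, 6739 and 5325 RPM with FBF-1 and 10304, 8863 and 9021 RPM with FBF-2, against 403, 292 and 359 RPM in the controls. The lowest FBF library of either gender was above the highest control of both. gld-1 was 27.7-fold higher with FBF in spermatogenic germlines (log2 fold change 4.79, SE 0.19, edgeR adjusted p = 6.33e-130) and 21.7-fold higher in oogenic germlines (4.44, SE 0.17, adjusted p = 1.09e-17). The choice of controls set the order of these values. Against the controls of the other gender, the log2 fold change of gld-1 was 3.56 in spermatogenic and 5.73 in oogenic germlines.

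nos-3 had a smaller rise. Its FBF-1 libraries held 220, 204 and 233 RPM and its FBF-2 libraries 365, 336 and 376 RPM in spermatogenic germlines, against 82.7, 67.1 and 48.1 RPM in the controls. In oogenic germlines FBF-1 gave 107, 245 and 262 RPM and FBF-2 254, 215 and 254 RPM, against 77.8, 77.5 and 79.1 RPM in the controls. All FBF libraries were above all controls, although the lowest, FBF-1 oogenic replicate 1, held only 2 counts. The log2 fold change with FBF was 2.18 (SE 0.28) in spermatogenic and 1.67 (SE 0.27) in oogenic germlines, with edgeR adjusted p = 1.49e-13 and 9.96e-06 in that order. With TMM normalization, which sets the bulk of RNAs equal between FBF and control, the oogenic value was 0.97 and no longer passed 2-fold.

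The poly(A) polymerase gld-2 was recovered at a nearly even level from all FBF groups. Spermatogenic FBF-1 libraries held 919.6, 956 and 933 RPM and FBF-2 libraries 983, 803 and 902 RPM, against 248, 218 and 199 RPM in the controls. Oogenic FBF-1 libraries held 640.03, 1055 and 1000.3 RPM and FBF-2 libraries 920.03, 825 and 825 RPM, against 92, 152 and 165 RPM in the controls. The groups with and without antibody did not overlap. gld-2 was 4.16-fold higher with FBF in spermatogenic (log2 fold change 2.06, SE 0.19, edgeR adjusted p = 6.12e-26) and 6.76-fold higher in oogenic germlines (2.76, SE 0.21, adjusted p = 1.12e-11). Against the controls of the other gender the log2 fold change of gld-2 was 2.71 in spermatogenic and 2.08 in oogenic germlines, the opposite order.

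gld-4, the other polymerase, stood apart from the rest, although its counts may lack reads from the stretch shared with ZK858.10. In spermatogenic germlines it had 90.2, 62.8 and 107 RPM with FBF-1 and 107, 75.9 and 75.7 RPM with FBF-2, against 36.7, 33.5 and 54.9 RPM in the controls. In oogenic germlines it had 0, 112 and 107 RPM with FBF-1 and 48.9, 61.5 and 58.9 RPM with FBF-2, against 42.4, 35.2 and 28.8 RPM in the controls, which rest on 4 to 10 counts each. Apart from the shallow FBF-1 oogenic replicate 1, which had no count, every FBF library exceeded every control of its gender. The log2 fold change was 0.98 (SE 0.39, edgeR adjusted p = 0.0257, not called, although it was against the oogenic controls at 1.31) in spermatogenic and 1.27 (SE 0.39, adjusted p = 0.00852, called) in oogenic germlines. Both 95% intervals, 0.22 to 1.74 and 0.48 to 2.06, included the median of all RNAs tested in that gender.

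The oogenic call of gld-4 was lost in 14 of 18 alternatives (adjusted p 3.21e-05 to 0.21), among them TMM normalization (0.54), FBF-2 libraries alone (0.64) and DESeq2 (1.26). It was also lost without combined FBF replicate 2 (1.13) or 3 (1.17) and without control replicate 1 (1.38), 2 (1.26) or 3 (1.17).

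The RNAs of both GLD-2 partners, rnp-8 and gld-3, were recovered with FBF in both genders. In spermatogenic germlines rnp-8 had 345, 322 and 358 RPM with FBF-1 and 539, 459 and 487 RPM with FBF-2, against 27.6, 0 and 13.7 RPM in the controls, which amount to 3, 0 and 2 counts. In oogenic germlines it had 107, 410.3 and 392 RPM with FBF-1 and 401, 272 and 335 RPM with FBF-2, against 84.9, 45.8 and 35.9 RPM in the controls. No FBF library fell to the level of a control in either gender, although the lowest, FBF-1 oogenic replicate 1, held only 2 counts. Over control, rnp-8 had a log2 fold change of 4.71 (SE 0.38, edgeR adjusted p = 9.02e-34) in spermatogenic and 2.76 (SE 0.29, adjusted p = 7.7e-09) in oogenic germlines.

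Since the spermatogenic controls hold so few rnp-8 counts, the size of that ratio is loosely set. Summed counts gave 21.8-fold (95% interval 9.29 to 67.1, counting error only) with FBF-1 and 30.7-fold (13.1 to 94.6) with FBF-2. Against the controls of the other gender, the log2 fold change of rnp-8 was 2.97 in spermatogenic and 4.52 in oogenic germlines.

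gld-3 had 301, 333 and 335 RPM with FBF-1 and 414, 321 and 376 RPM with FBF-2 in spermatogenic germlines, against 36.7, 67.1 and 27.5 RPM in the controls. In oogenic germlines it had 107, 288 and 340.3 RPM with FBF-1 and 153, 154 and 199 RPM with FBF-2, against 56.6, 49.3 and 35.9 RPM in the controls. FBF and control libraries did not overlap, although the lowest FBF value, in FBF-1 oogenic replicate 1, was from 2 counts. Its log2 fold change was 3.17 (SE 0.32, edgeR adjusted p = 2.97e-22) in spermatogenic and 2.40 (SE 0.31, adjusted p = 3.59e-07) in oogenic germlines.

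**Figure D2:**
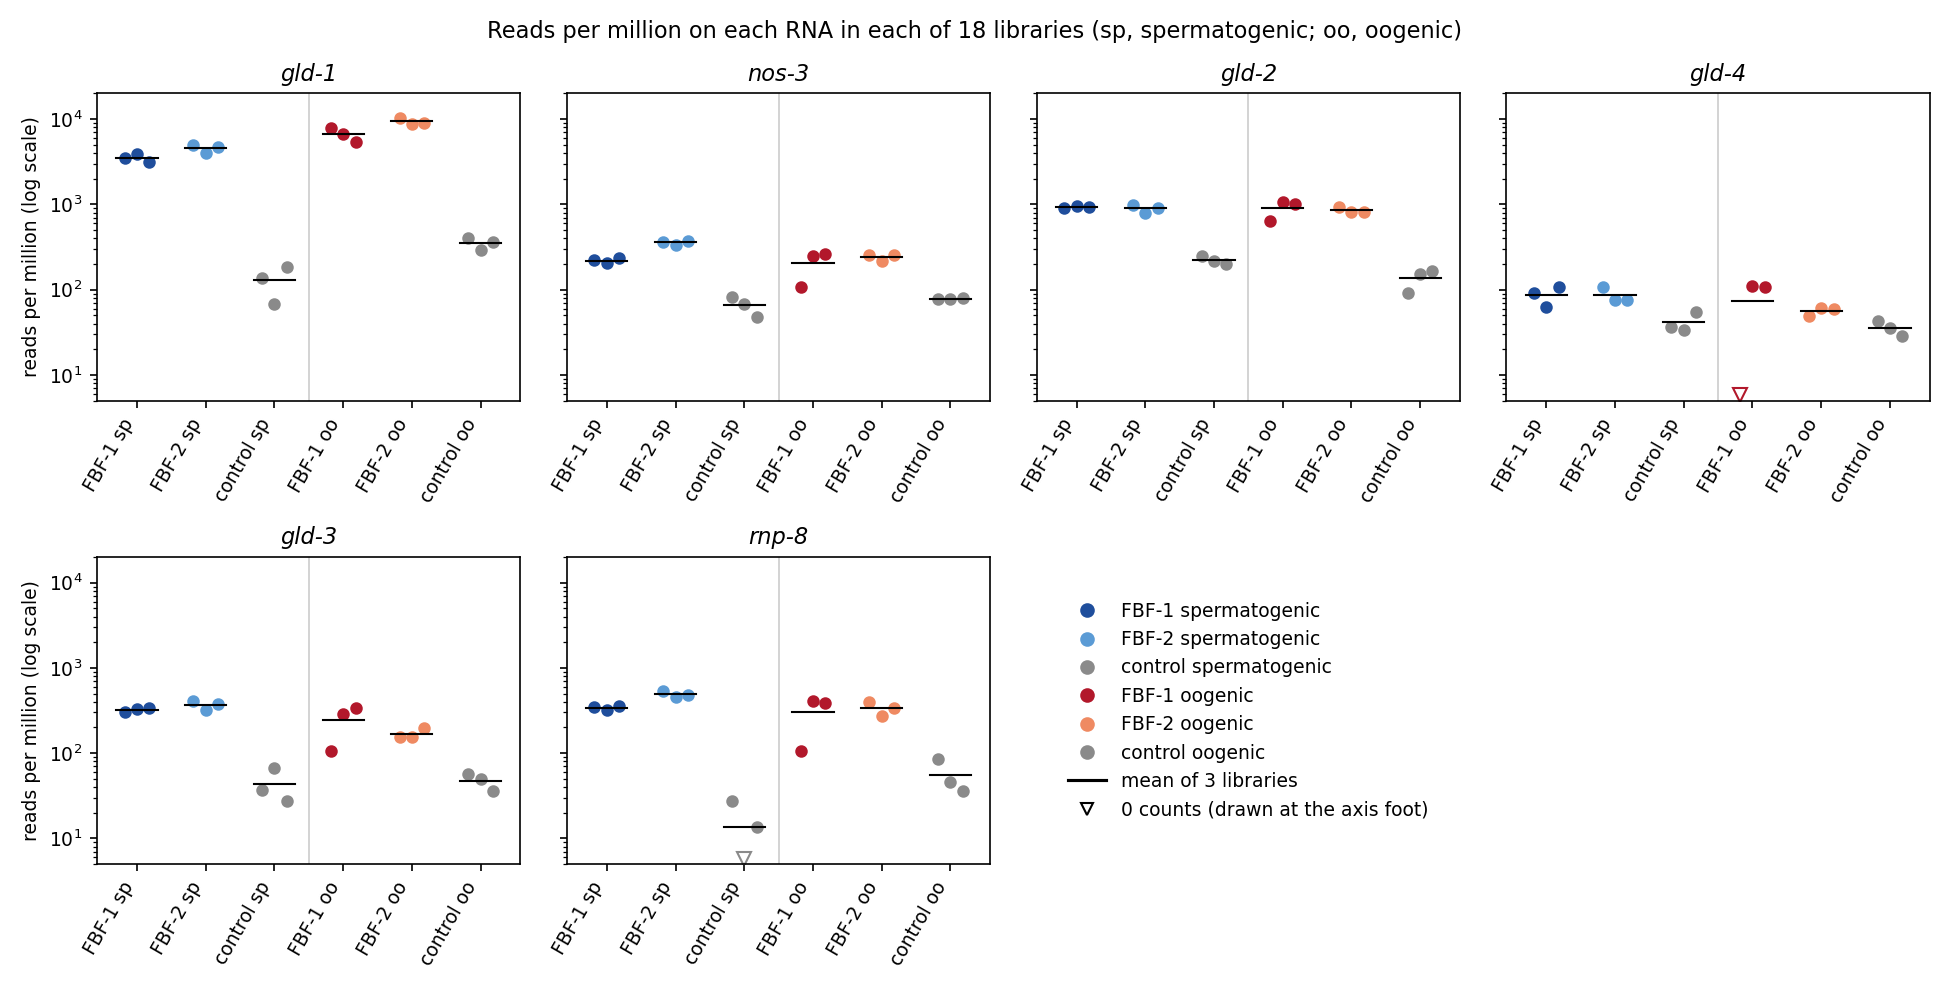
RPM (log scale) of each of the 6 RNAs in the 18 libraries, with 1 point per library, a line at the mean of 3 and open triangles for libraries with 0 counts. gld-1 lies between 3157 and 10304 RPM in FBF libraries and between 67.1 and 403 RPM in controls, whereas gld-4 does not exceed 112 RPM anywhere.

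RPM groups that did not overlap were common in these comparisons, 59.4% of the RNAs tested in spermatogenic and 55.8% in oogenic germlines on combined replicates. All 6 RNAs were among them in both genders. The calls of gld-1, gld-2, gld-3 and rnp-8 stood under each alternative run in either gender, and so did that of nos-3 in spermatogenic germlines. Scaling mattered for the background, however: with TMM normalization 1795 RNAs were called higher and 804 lower in spermatogenic germlines (2414 and 478 by library size), and 991 higher and 816 lower in oogenic germlines (1902 and 109 by library size), with the median at 0.36 and 0.17. In oogenic germlines TMM gave log2 fold changes of 3.80 for gld-1, 2.07 for rnp-8, 2.06 for gld-2 and 1.68 for gld-3. Genes for rRNA, tRNA and mitochondrial RNA took 29.4% to 36.1% of counts in spermatogenic controls and 47.9% to 52.0% in oogenic controls. In FBF libraries they took 13.5% to 17.2% and 15.1% to 41.2% in the same order. Library-size scaling without them put the medians at 0.40 in spermatogenic and 0.35 in oogenic germlines. It put gld-4 at 0.67 and 0.69, not called in either. Without control oogenic replicate 2, the number of RNAs called in oogenic germlines was 1231 rather than 2011.

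**Figure D3:**
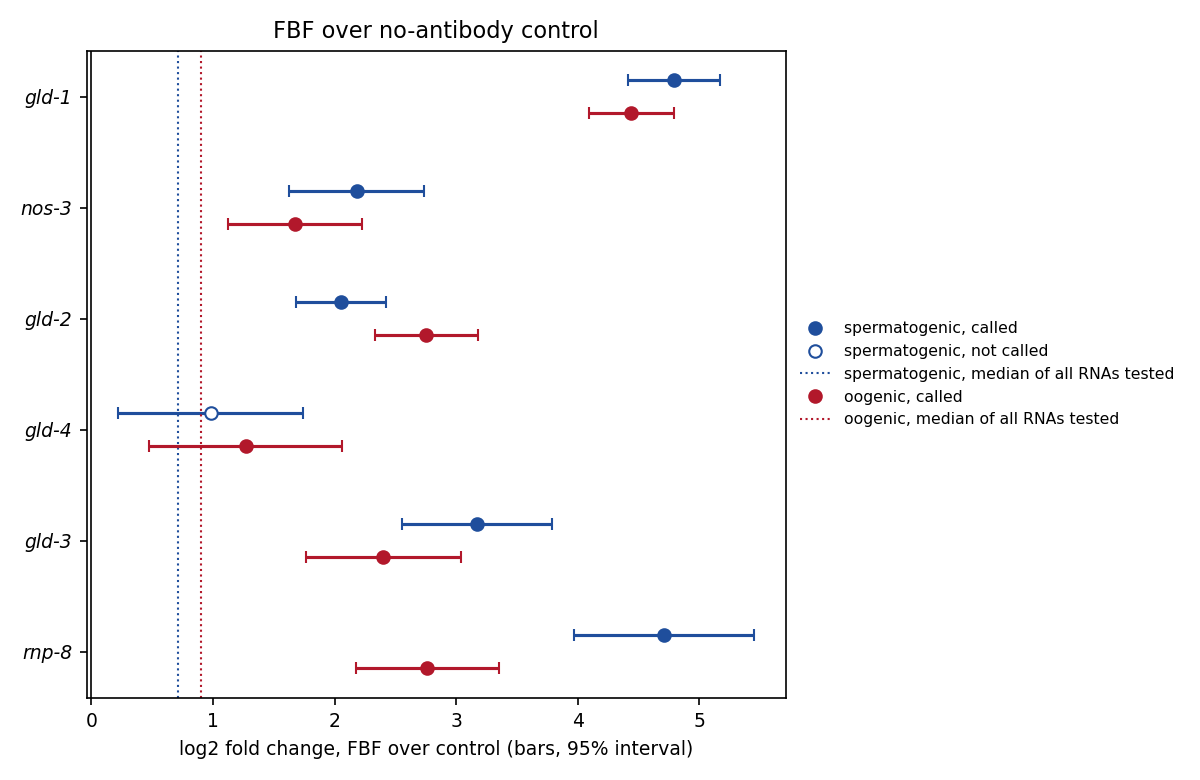
Log2 fold change of FBF over no-antibody control for the 6 RNAs in spermatogenic (blue) and oogenic (red) germlines, with 95% intervals, filled points where called and dotted lines at the median of all RNAs tested (0.71 and 0.90). gld-1 (4.79 and 4.44) and spermatogenic rnp-8 (4.71) lie farthest to the right, and the intervals of gld-4 cross the dotted lines.

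Whether the recovery over control itself differed between genders was tested as an interaction over combined FBF replicates and controls, leaving out rRNA, tRNA and mitochondrial genes, and with an adjusted p under 0.01 as the call. None of the 6 RNAs was called, where 2.25% of 7328 RNAs were. rnp-8 came closest, with a log2 difference (spermatogenic minus oogenic) of 2.20 (SE 0.63, edgeR adjusted p = 0.0234, 0.0155 to 0.144 over the alternatives). The value for gld-3 was 1.03 (95% interval -0.01 to 2.07), for nos-3 0.78 and for gld-1 0.58, while gld-2 (-0.43) and gld-4 (-0.03) were on the other side of 0. The median of all RNAs tested was 0.29. The number of the 6 at an unadjusted p under 0.05 was 1, against 16.5% of all RNAs, and DESeq2 called none of the 6.

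Next, FBF libraries were compared between genders, by TMM normalization of the 6 combined replicates. gld-1 was the only one of the 6 RNAs that was called, and it was lower in spermatogenic germlines, where 4.71% of 7501 RNAs were called lower and 10.2% higher. Its combined replicates held 4533, 3762 and 3805 RPM in spermatogenic and 8975, 7246 and 6410 RPM in oogenic germlines. The oogenic ones differed in their mix of proteins. Replicate 1 joined 18749 FBF-1 counts with 441192 FBF-2 counts, and replicate 3 joined 1833483 FBF-1 counts with 510852 FBF-2 counts. The part of this mix in the values of gld-1 was not tested. Every spermatogenic replicate was below every oogenic one, and 43.9% of all RNAs tested likewise had no overlap, in one direction or the other. The log2 fold change was -1.20 (SE 0.27, edgeR adjusted p = 0.00217), or 0.436-fold.

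The direction held in each of 17 alternatives (-1.57 to -0.89, adjusted p 4.6e-12 to 0.0347), but the call did not. It was lost with library-size scaling (-0.90), with FBF-1 libraries alone (-0.93), with a minimum mean of 100 counts (-1.19, adjusted p = 0.0119), without combined spermatogenic replicate 2 (-1.12) or 3 (-1.13) and without combined oogenic replicate 1 (-0.89).

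The difference for gld-1 was also present without antibody. The controls held 138, 67.1 and 185 RPM in spermatogenic and 403, 292 and 359 RPM in oogenic germlines, again with no overlap, as 35.6% of all RNAs tested. gld-1 was called lower in spermatogenic controls, with a log2 fold change of -1.53 (SE 0.26, edgeR adjusted p = 8.04e-06, TMM), where 6.73% of 3137 RNAs were called lower. This call stood in all 13 alternatives (-1.86 to -1.25). Most oocyte markers moved with it: 10 of 13 were called lower in spermatogenic FBF libraries and 9 of 13 in spermatogenic controls, with the sums given above. In the controls 2 of the 13 had a log2 fold change above 0, against 0 of the 13 with FBF. The part of these markers in the difference of gld-1 was not tested.

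The remaining 5 RNAs did not pass. gld-3 had a log2 fold change of 0.22 (95% interval -0.07 to 0.52), gld-2 of -0.28 (-0.61 to 0.05), gld-4 of -0.19 (-0.50 to 0.11), rnp-8 of -0.04 (-0.34 to 0.25) and nos-3 of -0.01 (-0.31 to 0.28), spermatogenic over oogenic. All 5 intervals lay within 2-fold in both directions. Library-size scaling moved the median of all RNAs by 0.20, to 0.19, and put rnp-8 (0.19), nos-3 (0.22) and gld-4 (0.01) above 0. By RPM, which has the same scaling, all combined spermatogenic replicates of gld-3, rnp-8 and nos-3 were above all oogenic ones. Groups without overlap, in one direction or the other, were found for 43.9% of all RNAs tested. gld-3 had 312 to 379 RPM in spermatogenic and 196 to 299 RPM in oogenic combined replicates, rnp-8 had 406 to 444 RPM in spermatogenic and 326 to 394 RPM in oogenic ones and nos-3 had 282 to 294 RPM in spermatogenic and 238 to 261 RPM in oogenic ones. In the controls none of these 5 was called either. By RPM, every spermatogenic control was above every oogenic one for gld-2 and below for rnp-8. Such a lack of overlap was found for 35.6% of all RNAs tested in the controls. rnp-8 had -1.98 (SE 0.64, adjusted p = 0.0222, 0.0133 to 0.149 over the alternatives), from 5 counts in spermatogenic and 30 in oogenic controls, and gld-2 had 0.38, gld-3 -0.57, gld-4 0.04 and nos-3 -0.56. The split of calls among all controls was 197 higher and 211 lower, or 263 and 171 with library-size scaling.

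**Figure D4:**
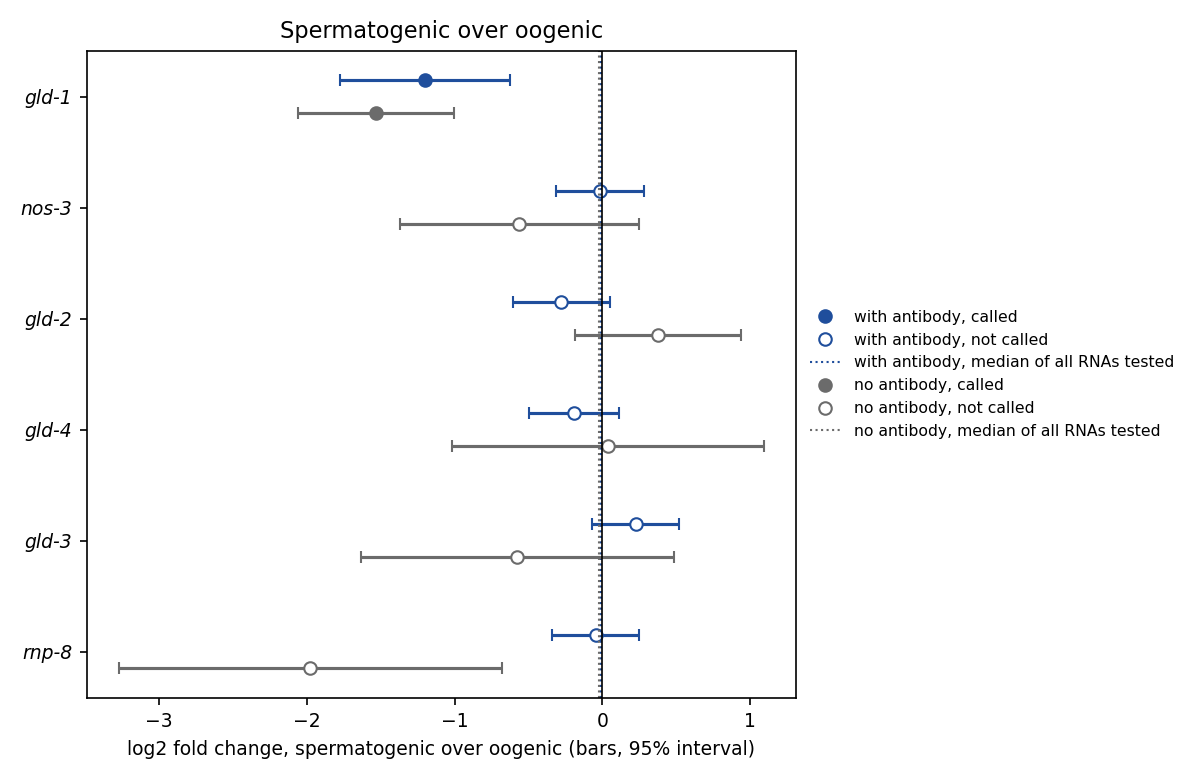
Log2 fold change of spermatogenic over oogenic germlines for the 6 RNAs, with antibody (blue) and without (grey), with 95% intervals and filled points where called. gld-1 lies left of 0 in both (-1.20 and -1.53), and the wide grey bars reflect the low counts of the controls.

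FBF-1 was then compared with FBF-2 within each gender. None of the 6 RNAs was called in spermatogenic germlines, where 5.72% of 6203 RNAs were, or in oogenic germlines, where 8.06% of 4737 were. By adjusted p alone, without the 2-fold minimum, 2 of the 6 passed in each gender, against 22.2% of all RNAs in spermatogenic and 21.1% in oogenic germlines, and nos-3 was in both pairs.

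In spermatogenic germlines nos-3 had 220, 204 and 233 RPM with FBF-1 and 365, 336 and 376 RPM with FBF-2, with a log2 fold change (FBF-1 over FBF-2) of -0.75 (SE 0.11, edgeR adjusted p = 4.28e-06). rnp-8 had 345, 322 and 358 RPM with FBF-1 and 539, 459 and 487 RPM with FBF-2, a log2 fold change of -0.57 (SE 0.12, adjusted p = 0.000238). Both RNAs had every FBF-1 library below every FBF-2 library, as did gld-1 (-0.41, adjusted p = 0.0481), which did not pass. Groups without overlap were found for 42.3% of all RNAs. gld-3 (-0.24, 95% interval -0.48 to 0.01), gld-2 (0.03, -0.23 to 0.28) and gld-4 (0.05, -0.28 to 0.39) overlapped between the proteins. The adjusted p of nos-3 was at most 0.000346 and that of rnp-8 at most 0.00513 over 13 alternatives. Summed sperm markers were higher in the same FBF-1 libraries, 1138 to 1221 RPM against 631 to 781 RPM with FBF-2, and 2 of the 11 tested were called higher. Intestine markers (10158 to 12260 RPM against 6456 to 8645 RPM with FBF-2) and oocyte markers (3722 to 4043 RPM against 3108 to 3460 RPM with FBF-2) were also above FBF-2 in every FBF-1 library, although none was called. The part of these markers in the differences was not tested.

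In oogenic germlines gld-1 had the largest difference with TMM normalization, but not with library-size scaling. It had 7894, 6739 and 5325 RPM with FBF-1 and 10304, 8863 and 9021 RPM with FBF-2, with no overlap, which 30.9% of all RNAs shared. The log2 fold change was -0.98 (SE 0.22, edgeR adjusted p = 6.15e-05), just within 2-fold. It passed 2-fold without FBF-1 oogenic replicate 1 (-1.16) or FBF-2 oogenic replicate 3 (-1.01), and with library-size scaling it was -0.53 (adjusted p over the alternatives 3.59e-05 to 0.0509). Summed oocyte markers were higher in the same FBF-1 libraries, 8107 to 12062 RPM against 5540 to 6616 RPM with FBF-2, and 2 of 13 were called higher, while muscle markers were lower, 4308 to 4621 RPM against 4669 to 5224 RPM with FBF-2. Their part in these differences was not tested.

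nos-3 had a log2 fold change of -0.47 (SE 0.15, edgeR adjusted p = 0.00942, 0.00942 to 0.848 over the alternatives), from the overlapping values given above. The others did not pass: gld-2 had -0.29, rnp-8 -0.33, gld-3 0.37 (95% interval 0.06 to 0.67) and gld-4 0.44 (-0.02 to 0.91). Some of these signs depended on the scaling. FBF-2 oogenic libraries had 33.1% to 38.4% of counts on rRNA, tRNA and mitochondrial genes, against 41.2%, 19.4% and 15.1% in FBF-1 oogenic replicates 1, 2 and 3. Library-size scaling moved the median of all RNAs by 0.50, to 0.52, and put gld-2 (0.22), rnp-8 (0.18) and nos-3 (0.04) above 0. With it the values of gld-4 (0.95, adjusted p = 0.000742) and gld-3 (0.88, adjusted p = 1.51e-06) were the largest of the 6 and passed the adjusted p, but not 2-fold. With it, 874 RNAs were called higher and 59 lower with FBF-1, against 187 and 195 with TMM.

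**Figure D5:**
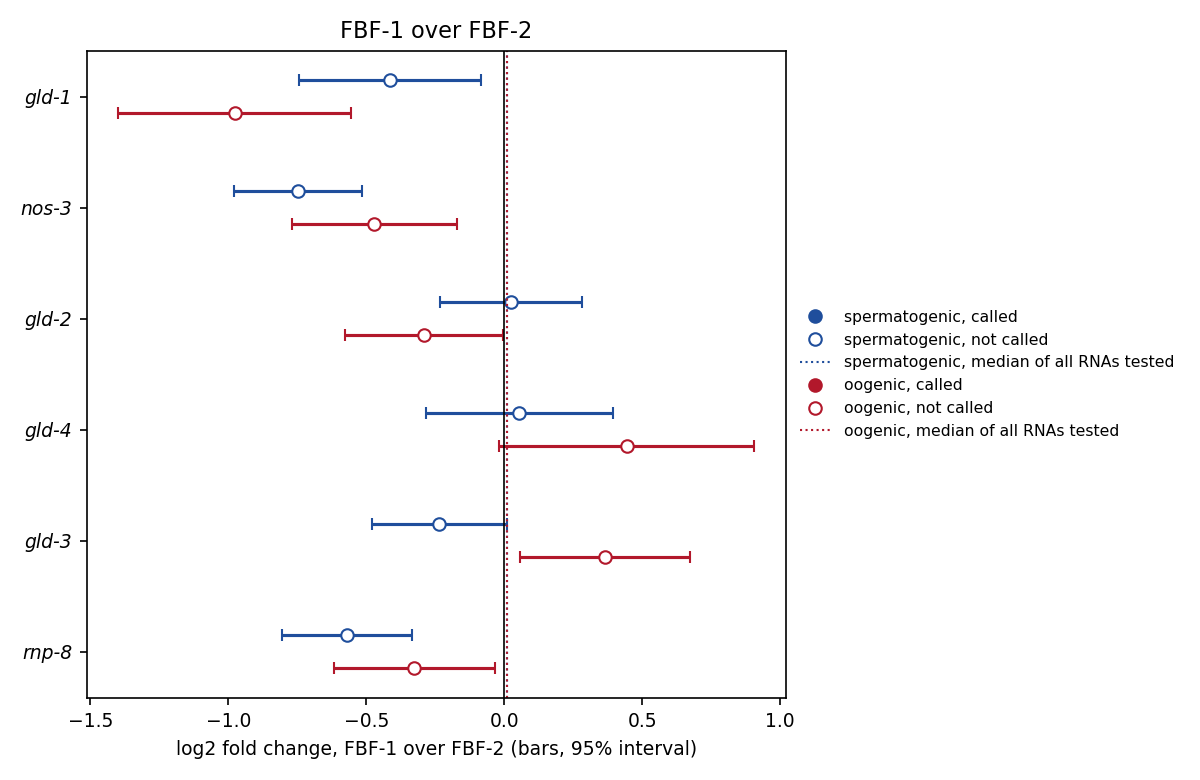
Log2 fold change of FBF-1 over FBF-2 for the 6 RNAs in spermatogenic (blue) and oogenic (red) germlines, with 95% intervals. All points are open since none was called. The oogenic value of gld-1 (-0.98) and the spermatogenic value of nos-3 (-0.75) lie farthest to the left.

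The difference between the paralogs was not found to depend on gender for any of the 6 RNAs, in a test of the interaction over the 12 FBF libraries (call at an adjusted p under 0.01, passed by 6.47% of 5489 RNAs). The nearest were gld-3, with a log2 difference (spermatogenic minus oogenic) of -0.58 (SE 0.20, edgeR adjusted p = 0.0462, 9.46e-06 to 0.474 over the alternatives), and gld-1, with 0.63 (SE 0.26, adjusted p = 0.0922, 0.0323 to 0.535). At an unadjusted p under 0.05 there were 2 of the 6, against 26.8% of all RNAs, and DESeq2 called none of the 6. With library-size scaling, which moved the median of all RNAs to -0.53 and made 98 calls higher and 1147 lower (230 and 125 by TMM), gld-3 (-1.07), rnp-8 (-0.70) and nos-3 (-0.74) were called.

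A list of 26 other genes of the same decision or close relatives of the 6, 25 of them in the table, was counted in the same fits. In spermatogenic germlines 16 of the 21 tested were called higher with FBF than in controls, and in oogenic germlines 17 of 22, with none lower in either, where 29.2% and 29.6% of all RNAs were called higher in that order. The SCF ubiquitin ligase component prom-1, which acts in a parallel meiotic entry branch, had log2 fold changes of 4.97 (SE 0.33) in spermatogenic and 4.76 (SE 0.37) in oogenic germlines, close to gld-1. The RNA of fbf-2, which includes that of the tagged transgene, had 4.77 (SE 0.41) in spermatogenic and 3.71 (SE 0.37) in oogenic germlines. cdk-2, a cell cycle kinase, had no count in the 3 spermatogenic controls and was at least 6.65-fold higher with FBF (63.5 RPM, against a floor of 3 counts over the control group). Between genders, 3 of 22 were called lower in spermatogenic FBF libraries and none higher, against 4.71% and 10.2% of all RNAs. These were the Nanos paralog nos-2 (log2 fold change -3.38, SE 0.28), the RNA-binding protein mex-3 (-1.74, SE 0.13) and the stem cell regulator sygl-1 (-1.28, SE 0.19). In the controls mex-3 was the 1 of 12 tested that was called (-2.64, SE 0.54), where 6.73% of all RNAs were called lower. nos-2 and sygl-1 had too few control counts to be tested there. They held 0 and 2 counts in all spermatogenic controls, against 17 and 12 in all oogenic controls. nos-2 was not called over control in oogenic germlines (0.92, edgeR adjusted p = 0.0642). sygl-1 was called higher with FBF-1 than with FBF-2 in both genders, by 1.16 (SE 0.18) in spermatogenic and 1.38 (SE 0.20) in oogenic germlines, and fbf-2 lower in oogenic germlines (-1.09, SE 0.15). The intact copy of fbf-2 was the transgene in FBF-2 strains and the endogenous gene in FBF-1 strains. For this RNA, gene copy and protein cannot be told apart.

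The profile of each RNA over the 6 combined FBF replicates and 6 controls was set against those of 7501 RNAs by Pearson correlation of log2(RPM + 5), given as a description without a test. The points share libraries, and any RNA recovered with the antibody correlates by the gap between FBF and control. The most similar RNAs were ZK616.5, car-1 and trcs-1 for gld-1 (r = 0.992, 0.991 and 0.991), and Y53F4B.13, ntl-9 and C25A1.16 for nos-3 (r = 0.993, 0.991 and 0.989). For the polymerases they were Y54G2A.19, atg-18 and Y53F4B.9 for gld-2 (r = 0.989, 0.985 and 0.983) and Y116A8C.13, vps-60 and nurf-1 for gld-4 (r = 0.979, 0.976 and 0.975). For the partners they were maco-1, Y54G11A.11 and pkc-3 for gld-3 (r = 0.992, 0.990 and 0.988) and tag-261, hse-5 and Y51F10.3 for rnp-8 (r = 0.993, 0.989 and 0.988). No RNA of the 6 was among the nearest 3 of another. Among the 6 themselves r was 0.787 to 0.973, highest for gld-3 with nos-3 and lowest for gld-2 with its partner rnp-8. With its other partner, gld-3, gld-2 had 0.919, and with nos-3 it had 0.933.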

How the data were processed

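The authors deposited raw counts of iCLIP reads per gene for 18 libraries. Per the study's methods, STAR mapped the reads in local mode. Multiply mapping reads and those with a score below 20 were discarded, barcodes were used to collapse duplicates, and HTSeq assigned reads to exons. Tool versions of the mapping, the genome build, the annotation and the strand setting are not given in the sources used here. Reads on no gene (9.54% to 20.2% of a library) and ambiguous reads (0.568% to 1.93%) were left out of library sizes.

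All tests were quasi-likelihood F tests with robust dispersion in edgeR 4.0.16, run under R 4.3.3 with limma 3.58.1. Combined FBF replicates were formed as in the study's methods. Recovery over control, and its interaction with gender, were scaled by library size because TMM assumes that most RNAs are equal between the libraries compared. Other comparisons used TMM. The minimum mean count for testing was 20 in FBF libraries and 5 where controls alone were compared, which all 6 passed in each comparison. SEs are the log2 fold change over the root of F. Each pair of replicates differed by more than sampling noise, and all were kept as separate samples. With 3 libraries against 3, exact permutation gives no p below 0.1. Names were matched to Ensembl release 115 for 22438 genes. Alternatives were DESeq2 1.42.0, other scalings, controls, minimums and thresholds, separate or single-protein libraries, a replicate block and each replicate left out. The tests were tried on simulated counts. Other values and the plots were made in Python 3.11.15 with numpy 2.4.6, pandas 2.3.3 and matplotlib 3.10.9.

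The genes and the lists were chosen with earlier results of these data known. A further gene chosen with them is not reported here. All 6 are named, with the 3 RNAs of most similar profile each, and from the pathway list up to 3 called RNAs a direction with the largest change. A planned count of FBF binding elements in the 3′UTRs was not run, as no genome sequence was used here.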

Additional observations from a re-analysis of the deposited data

How the results depend on the processing

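Of 764 refits of a single one of the 6 RNAs, 701 kept direction and side of the threshold, 21 lost a call, 11 gained one and 31 changed sign, all of them in values that were not called. The lost calls were those of gld-1, gld-4 and nos-3 given above.

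Among the sign changes between genders, library-size scaling gave 0.012 for gld-4, 0.19 for rnp-8 and 0.22 for nos-3, and FBF-2 alone gave 0.089 for gld-4 and 0.027 for nos-3. nos-3 was also above 0 with DESeq2 size factors (0.0033) and with no count minimum (0.0072). For FBF-1 over FBF-2, DESeq2 gave gld-4 -0.011 in spermatogenic germlines, and library-size scaling gave gld-2 0.22, rnp-8 0.18 and nos-3 0.040 in oogenic germlines. gld-4 in the controls was -0.074 with no count minimum. In the interaction of protein and gender, library-size scaling gave gld-2 -0.15. In that of antibody and gender, gld-4 was 0.063 in separate libraries. With 1 replicate left out, values that changed sign ranged from -0.099 to 0.0066 for rnp-8 and -0.092 to 0.087 for nos-3 between genders, from -0.091 to 0.093 for gld-2 and -0.085 to 0.22 for gld-4 for FBF-1 over FBF-2 in spermatogenic germlines, from -0.24 to 0.17 for gld-4 in the controls, and from -0.19 to 0.29 for gld-4 in the interaction of antibody and gender. The cause of these changes was not tested.

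The number of the 6 called between genders was 1, but 0 with library-size scaling, FBF-1 alone or a minimum mean of 100 counts. For FBF-1 over FBF-2 it was 0 in both genders, but 2 in each without the fold minimum. For protein and gender it was 0, but 3 with library-size scaling and 1 (gld-3, -0.67) with a minimum mean of 100 counts. With 1 replicate left out it was 5 to 6 over control in oogenic germlines, and 0 to 1 both between genders and for FBF-1 over FBF-2 in oogenic germlines.

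Over all RNAs, the 2011 calls over control in oogenic germlines were 1202 with FBF-2 alone. Between genders, 1119 calls became 554 with FBF-2 alone, 2819 with no count minimum, 250 with the higher minimum, 1738 without the fold minimum and 563 in separate libraries. For FBF-1 over FBF-2, 355 calls in spermatogenic germlines became 605 with no count minimum, 108 with the higher one and 1374 without the fold minimum, and 382 calls in oogenic germlines became 933 with library-size scaling, 117 with DESeq2, 138 with the higher minimum and 999 without the fold minimum. The controls had 408 calls, 632 with no count minimum and 154 with the higher one. Protein and gender had 355, but 1245 with library-size scaling and 103 with DESeq2. Antibody and gender had 165, but 253 with rRNA, tRNA and mitochondrial genes kept. With 1 replicate left out the range was 1231 to 2779 over control in oogenic germlines (lowest without control replicate 2), 204 to 357 for protein and gender (204 without FBF-1 oogenic replicate 3, 209 without FBF-1 spermatogenic replicate 1 and 220 without FBF-2 oogenic replicate 3), and 118 to 261 for antibody and gender (261 without combined FBF oogenic replicate 1).

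Same-numbered FBF-1 libraries of both genders carry the same rt label in their descriptions, as do same-numbered controls and FBF-2 replicate 1. The meaning of this label is not given in the sources used here. In no pair of groups did the deviations of all same-numbered libraries correlate above 0.1 (-0.24 to 0.19). Between genders FBF-1 replicate 3 (0.19) and FBF-2 replicates 1 (0.15) and 2 (0.12) did. FBF-1 replicates 1 (0.037) and 2 (-0.036) and FBF-2 replicate 3 (-0.044) did not. With shallow libraries this check cannot exclude a pairing. The replicate block changed no call of the 6 beside the same libraries without it. Fits with the block to control or between genders used separate FBF-1 and FBF-2 libraries, where gld-4 over control in oogenic germlines was not called with the block (1.04, edgeR adjusted p = 0.0947) or without it (1.12, adjusted p = 0.0437). gld-4 changed sign with the block for FBF-1 over FBF-2 in spermatogenic germlines (-0.020) and in the controls (-0.0098), and for antibody and gender it was 0.11 with the block. In separate libraries the calls with and without the block were 1217 and 1451 over control in oogenic germlines, 545 and 563 between genders and 100 and 111 for antibody and gender.

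Depth limits gld-3, gld-4 and rnp-8, with 4 to 14, 2 to 10 and 0 to 13 counts in a control library. In spermatogenic controls it also limits gld-1, with 4 to 27 counts, and nos-3, with 4 to 9 counts. FBF-1 oogenic replicate 1 adds little to any of the 6 but gld-1. Leaving that library out of the combined replicates changed no call of the 6. Counts per gene do not show where on an RNA FBF was bound.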
